A study of Caenorhabditis elegans with 23 samples.

Results

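The early zygotic genes described here are 46 rows of a table of 31753 gene rows from Caenorhabditis elegans. They were chosen by name, with earlier results of these data known. The names were those of the sdz, pes, vet and tbx genes, the endoderm genes end-1 and end-3, med-1, med-2 and ceh-51. Of 51 rows with such a name, 46 held 10 or more counts over the 23 libraries, as did 15134 of all rows. The 46 comprised 21 sdz, 12 tbx, 7 pes and 2 vet genes with ceh-51, end-1, end-3 and med-2. The 5 rows below 10 counts were med-1 (1 count), sdz-23 (2), sdz-34 (0), tbx-31 (9) and tbx-41 (4). A further 19 such names stood in 14 rows that merge several genes, and these were not used here.

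In the worm, the oocyte supplies the mRNA of the first cell divisions, and the embryo's own genome is switched on soon after. The maternal transcription factor SKN-1 then activates med-1 and med-2 in the EMS blastomere, which gives rise to the MS and E cells. In E, the GATA factors END-1 and END-3 start the intestine, and in MS the T-box factor TBX-35 and the homeobox factor CEH-51 start mesoderm. The name sdz stands for SKN-1 dependent zygotic, vet for very early transcript and pes for patterned expression site. The tbx genes encode T-box transcription factors, which act in many embryonic lineages.

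The libraries were made by PAT-seq, which captures mRNA 3′ ends and reads into the poly(A) tail. In sequencing run 1 the sources were whole young adults: N2 (wild type), gld-2(q497) and YM19 cpb-3(bt17), each with 3 libraries. In sequencing run 2, with 2 libraries a group, gld-2(q497) young adults were fed control RNAi without a target (pcb19) or RNAi against ccr-4, ccf-1, panl-2, caf-1 or parn-1, and embryos of 1 and 2 cells came from N2. GLD-2 is a cytoplasmic poly(A) polymerase of the germline, CPB-3 is an RNA-binding protein of the CPEB family, and the RNAi labels name deadenylase genes. By the sample labels all 6 RNAi groups carried the gld-2 mutation, their control included, whereas the RNAi protocol names N2 worms; the labels are followed here. The labels do not say whether the adults held embryos, and do not tie replicates to cultures of their own, so the p-values cover the spread between these libraries only.

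Levels are given in CPM, counts scaled to a common library size over all 23 libraries, and not per transcript length. Libraries held 2.2 to 15.95 M counts, so that 1 CPM stood for few reads in the shallow ones, and 53.6 to 89.1% of counts carried a tail. The gld-2 gene itself stood at 11.2 to 12.4 CPM in N2, 2.78 to 4.64 CPM in gld-2 and 2.18 to 6.15 CPM over the RNAi libraries, and the cpb-3 gene at 51 to 57.7 CPM in N2 and 26.4 to 34.2 CPM in cpb-3. The RNAi targets did not stand low in the libraries labelled with them: against control RNAi, ccr-4 read 857 to 1030 CPM against 5.32 to 24.6, panl-2 137 to 1290 against 14.1 to 16.9, parn-1 43.9 to 84 against 12.3 to 12.7, and ccf-1 65.6 to 71.5 against 70.3 to 93.1. The row of caf-1 was not analysed here. The RNAi groups are therefore called by their labels. The embryo libraries also held reads of adult tissues: the 8 measured adult intestine markers summed to 21600 to 24700 CPM in embryos and 21800 to 27700 CPM in N2 adults. Their cuticle markers summed to 4820 to 5790 CPM against 8460 to 9000, and their body wall muscle markers to 1610 to 1840 CPM against 3630 to 4270. The gut factor elt-2 was at 0 in embryos.

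Most early zygotic genes were read in N2 and cpb-3 adults at a low level and nearly vanished from gld-2 adults. The median level over the 46 genes was 1.99 CPM in N2 and 1.97 CPM in cpb-3, but 0.191 CPM in gld-2, while the median of all rows was 2.7, 2.69 and 3.04 CPM. In the run 2 groups on gld-2 worms the median ran from 0.22 CPM on control RNAi to 0.492 CPM on ccf-1 RNAi, and it was 0.417 CPM in embryos. These are medians of group means, and single libraries had medians of 0 and 0.14 CPM on control RNAi, 0.54 and 0.759 CPM on ccf-1 RNAi and 0.121 and 0.235 CPM in embryos. No early zygotic gene was without counts in N2, against 12 (26.1%) in gld-2, 17 (37.0%) in gld-2 on control RNAi and 15 (32.6%) in embryos. Of all rows with 10 or more counts over the series, 5.9% had none in N2, 3.3% in gld-2, 9.9% on control RNAi and 27.3% in embryos. Since that minimum was over all libraries, a sparse gene could pass it through N2 and cpb-3 alone. This was so for tbx-35, with 4 counts in N2, 8 in cpb-3 and 12 over the series. For such genes 0 counts in gld-2 carry little information. The groups differed in depth, with 31.2 M counts over N2, 38.4 M over gld-2, 10.8 M over control RNAi and 6.8 M over embryos. The classes were not uniform: pes-9, sdz-27, sdz-6, pes-22, pes-7 and tbx-2 stood at several CPM in gld-2 worms too.

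**Figure D1:**
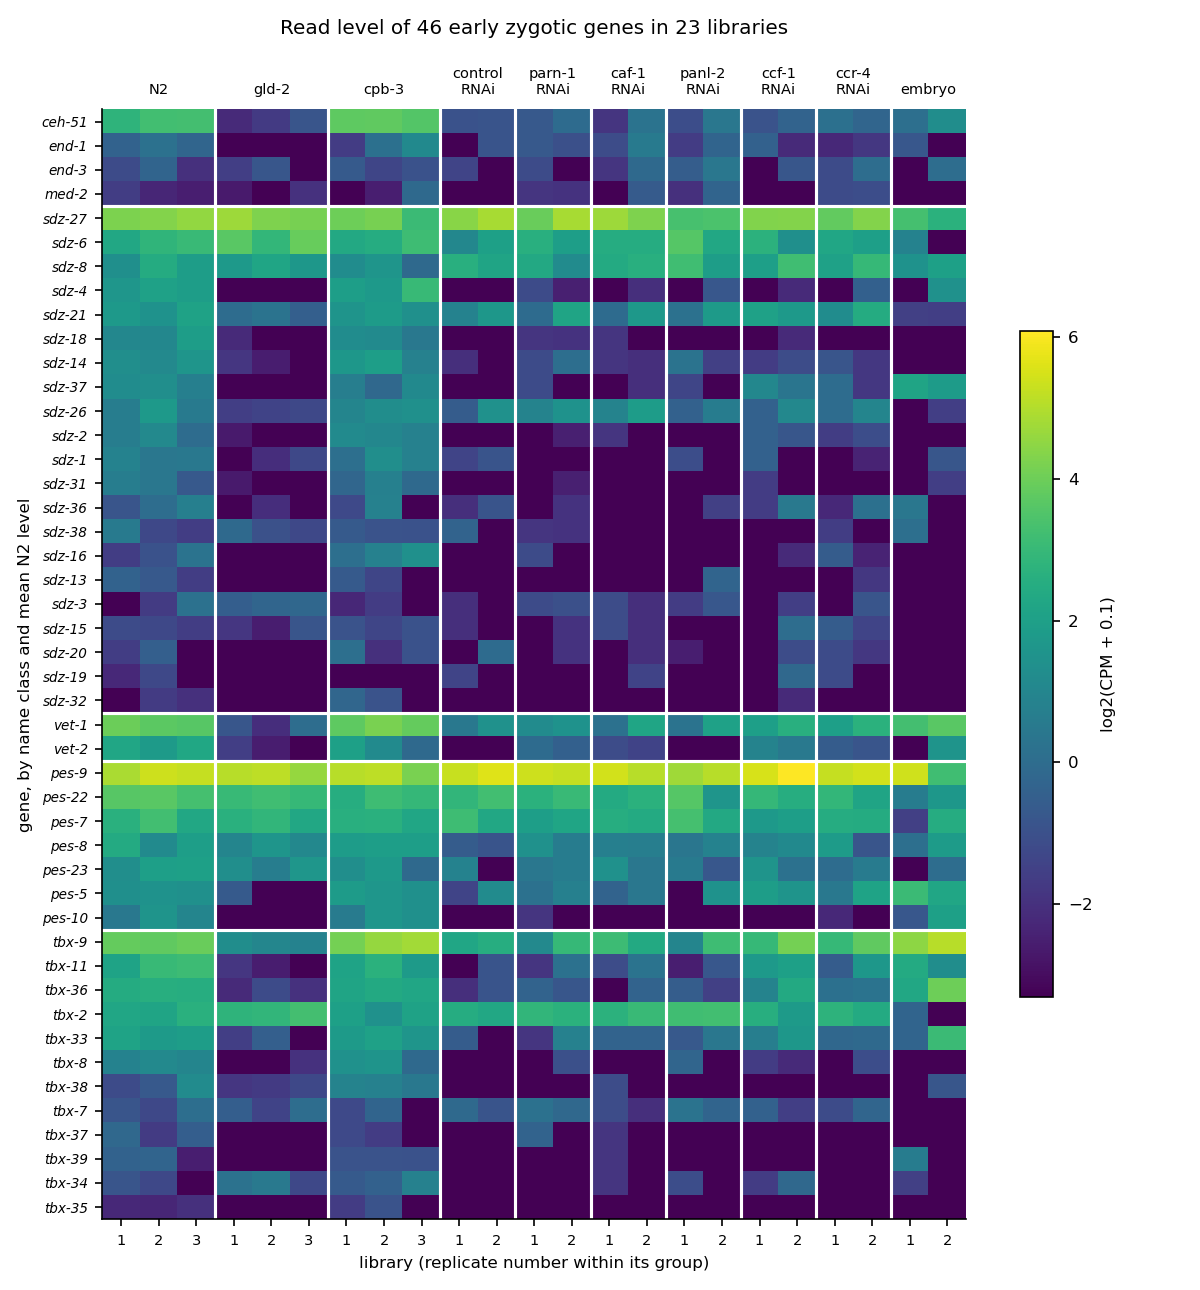
Level of each of the 46 early zygotic genes (rows, grouped by name class and ordered by mean N2 level) in each of the 23 libraries (columns, by group), coloured by log2(CPM + 0.1). Most rows are bright in N2 and cpb-3 and dark in gld-2 and its RNAi groups, whereas pes-9, sdz-27 and tbx-2 are bright in both N2 and gld-2.

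For gld-2 against N2, edgeR's quasi-likelihood test could be run on 31 of the 46 genes, and 21 of them fell and 0 rose at an adjusted p under 0.05. Over all 10357 rows tested, 14.9% fell and 13.5% rose. The median log2 change of the 31 genes was -3.44, or -3.42 with the 4 genes at 0 in gld-2 set to their bound, against 0.0 over all rows. Taking every one of the 46, the 3 gld-2 libraries lay wholly below the 3 N2 libraries for 28, and such a separation was seen in 19.5% of all rows. The 28 include sparse genes such as tbx-35, with 4 counts over N2 and 0 over gld-2, which passed the minimum through N2 and cpb-3 alone. The 15 untested genes had too few counts for the filter, so they add neither to the called nor to the unchanged. In whole worms, fewer cells of a type and less RNA per cell cannot be told apart.

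Among the genes that specify endomesoderm, ceh-51 carried most of the reads. This homeobox gene (chromosome V, 18874104 to 18875878, plus strand, ce10) acts in the MS lineage. It stood at 6.92, 9.42 and 9.57 CPM in N2, at 0.119, 0.204 and 0.464 CPM in gld-2 and at 13.3, 13.7 and 11.7 CPM in cpb-3. The gld-2 libraries thus lay far below all others and the cpb-3 libraries just above N2. The fall in gld-2 was -5.24 ± 0.38 on the log2 scale (SE, adjusted p = 5.3e-08, edgeR), from 281 counts over the N2 libraries to 8 over the gld-2 libraries. The row overlaps emb-4 on the opposite strand, and the sources used here do not say whether counting used strand.

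The endoderm GATA genes were near the limit of detection even in N2, and the edgeR filter left them untested. The gene end-1 (chromosome V, 13985122 to 13986985) had 6, 10 and 10 counts in the N2 libraries, 2, 14 and 5 in cpb-3 and 0 in each gld-2 library. All N2 and cpb-3 libraries thus held reads of end-1 and no gld-2 library did. Measured against 3 counts over the group, end-1 was at least 10.3-fold lower in gld-2 than in N2. Its neighbour end-3, which lies 27701 bp away and acts in the same cell, had 3, 7 and 2 counts in N2 and 4, 7 and 0 in gld-2, a ratio of N2 to gld-2 of 1.3 (95% counting interval 0.524 to 3.25). With so few reads the groups overlapped and no difference was detectable. The gene med-2, a direct SKN-1 target, had 4 counts over N2 and 2 over gld-2, and its copy med-1 is nearly identical, so reads could be split between the rows. The ratio of 2.38 has a counting interval of 0.341 to 26.3. The gene tbx-35, outside the rule for named genes and chosen after its values were seen for its place upstream of ceh-51, had 4 counts over N2, 8 over cpb-3 and 0 over gld-2.

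The SKN-1 dependent zygotic genes split into genes that fell in gld-2 and genes still read there. Of 21 sdz genes, 13 were tested in gld-2 against N2 and 10 fell. The lowest adjusted p among them was that of sdz-4 (chromosome II, 958968 to 960108), at 2.95, 4.04 and 3.64 CPM in N2, 3.79, 3.27 and 7.95 CPM in cpb-3 and 0 in all 3 gld-2 libraries. Against a floor of 3 counts this was at least 45.2-fold lower in gld-2 (adjusted p = 8.9e-06, edgeR). The gene sdz-37 gave the same picture, with 2.27, 2.38 and 1.56 CPM in N2 and 0 in each gld-2 library, at least 25.4-fold lower (adjusted p = 6.3e-05, edgeR). N2 and gld-2 did not overlap for either gene.

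Other sdz genes left a few reads in gld-2. The gene sdz-14 stood at 2.38, 2.07 and 2.89 CPM in N2 and 0.179, 0.0679 and 0 CPM in gld-2, a log2 change of -4.41 ± 0.58 (adjusted p = 2.9e-05, edgeR). The gene sdz-18 had 85 counts over N2 and 2 over gld-2, a 50.5-fold ratio (95% counting interval 13.6 to 424). The gene sdz-2, now named lido-2, had 45 against 1, a 53.5-fold ratio with an interval of 9.13 to 2160. The smallest falls in the class were those of sdz-21, by 1.88 ± 0.35 on the log2 scale (adjusted p = 0.00071, edgeR), and sdz-26, by 2.84 ± 0.54 (adjusted p = 0.00079, edgeR). Both kept reads in every gld-2 library, sdz-21 at 0.618 to 1.09 CPM and sdz-26 at 0.238 to 0.309 CPM.

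The 3 sdz genes with the highest N2 levels did not pass the test. The gene sdz-27 (chromosome IV, 11187035 to 11188187), the highest of the class, stood at 18.7, 20 and 23.4 CPM in N2 and 25.9, 19.3 and 17.6 CPM in gld-2. The gene sdz-8 stood at 2.5, 5.38 and 3.64 CPM in N2 and 3.22, 4.48 and 3.09 CPM in gld-2, and both pairs of groups overlapped. The gene sdz-6 stood at 4.88, 7.04 and 8.16 CPM in N2 and 12.6, 7.47 and 14.7 CPM in gld-2, with a log2 change of 0.78 ± 0.3 that missed the threshold (adjusted p = 0.061, edgeR), and its groups overlapped too.

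The vet genes both fell. The gene vet-1 (chromosome I, 6201027 to 6202348) stood at 15.7, 12.9 and 12.5 CPM in N2, 13.3, 18.1 and 14.6 CPM in cpb-3 and 0.476, 0.136 and 0.927 CPM in gld-2. The N2 and cpb-3 libraries overlapped and every gld-2 library was below 1 CPM. The fall was -4.93 ± 0.38 on the log2 scale (adjusted p = 1.1e-07, edgeR). The gene vet-2 stood at 4.65, 3.42 and 4.82 CPM in N2 and 0.238, 0.0679 and 0 CPM in gld-2, a change of -4.92 ± 0.61 (adjusted p = 1.4e-05, edgeR).

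Of the 7 pes genes, all were tested and 2 fell. The gene pes-10 (chromosome II, 12846332 to 12847745), whose minimal promoter is widely used in worm reporter constructs, stood at 1.25, 2.79 and 1.86 CPM in N2, 1.41, 2.98 and 2.51 CPM in cpb-3 and 0 in each gld-2 library. It was at least 25-fold lower in gld-2 than in N2 (adjusted p = 7e-05, edgeR). The gene pes-5 stood at 2.5, 2.69 and 2.52 CPM in N2, and in gld-2 at 0.536 CPM in replicate 1 and 0 in the others (log2 change -3.42 ± 0.65, adjusted p = 0.00083, edgeR). The other pes genes did not pass the test. Among them, pes-9 (chromosome V, 14595417 to 14597018) was the highest of all 46 genes, at 29.7, 41.6 and 37.8 CPM in N2 and 33.3, 35.1 and 24.3 CPM in gld-2. The gene pes-7, which encodes an IQGAP-like protein, stood at 6.24, 9.32 and 4.9 CPM against 6.13, 7.13 and 4.95 CPM. Both overlapped between the strains. The gene pes-22, now named mct-4, lay lower in every gld-2 library (7.88 to 9.1 CPM against 9.72 to 12.6), but its change of -0.46 ± 0.23 was not called (adjusted p = 0.15, edgeR).

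T-box genes gave some of the largest falls, and 2 tested members had positive changes that were not called. Of 12 tbx genes, 8 were tested and 6 fell. The gene tbx-9 (chromosome III, 10339971 to 10341757, minus strand), which acts with its neighbour tbx-8 in muscle and epidermis of the embryo, stood at 14.4, 13.8 and 15.1 CPM in N2 and 2.32, 1.9 and 1.7 CPM in gld-2. The gene tbx-8, 5733 bp away, stood at 1.7, 2.07 and 1.86 CPM in N2, with 1 read in all of gld-2. Their log2 changes were -2.81 ± 0.25 (adjusted p = 4.4e-07, edgeR) for tbx-9 and -5.59 ± 0.82 (adjusted p = 7.8e-05, edgeR) for tbx-8, whose count ratio was 71.4 (95% counting interval 12.3 to 2860). N2 and gld-2 did not overlap for either, and tbx-9 kept reads in every gld-2 library.

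The gene tbx-11 (chromosome III, 6045721 to 6046855) stood at 4.31, 7.97 and 8.53 CPM in N2 and 0.179, 0.0679 and 0 CPM in gld-2, a log2 change of -5.9 ± 0.54 (adjusted p = 5.9e-07, edgeR). The gene tbx-36 (chromosome IV, 11950581 to 11952053) stood at 5.45, 5.9 and 5.64 CPM in N2 and 0.119, 0.339 and 0.155 CPM in gld-2, a change of -4.66 ± 0.4 (adjusted p = 3.4e-07, edgeR). The gene tbx-33 stood at 4.31, 3.42 and 3.64 CPM in N2 and 0.238, 0.611 and 0 CPM in gld-2, a change of -3.44 ± 0.49 (adjusted p = 5.9e-05, edgeR). All 3 genes were separated between the strains, and cpb-3 libraries lay at 3.35 to 6.39 CPM for tbx-11, 4.43 to 5.09 CPM for tbx-36 and 2.93 to 4.07 CPM for tbx-33. The row of tbx-11 overlaps a merged row on the opposite strand.

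The call of tbx-38 was weak. With its near copy tbx-37, this gene acts in mesoderm induction from the ABa blastomere. It stood at 0.341, 0.518 and 2.23 CPM in N2 and 0.179, 0.204 and 0.309 CPM in gld-2, with a log2 change of -2.27 ± 0.73 (adjusted p = 0.028, edgeR). Without N2 replicate 3, the highest library, the change was -0.96 (adjusted p = 0.44), and without gld-2 replicate 1 or 2 the adjusted p was 0.11 or 0.099. The gene tbx-2, a T-box gene needed for pharyngeal muscle, stood at 4.65, 4.35 and 6.23 CPM in N2 and 6.91, 7.2 and 9.58 CPM in gld-2. Every gld-2 library was the higher, but the change of 0.63 ± 0.27 was not called (adjusted p = 0.1, edgeR). The gene tbx-34, outside the rule for named genes and chosen after its values were seen, had 4, 3 and 0 counts in N2 and 18, 19 and 2 in gld-2. Its change of 2.05 ± 0.8 was not called either (adjusted p = 0.071, edgeR), but it was called without gld-2 replicate 3, the lowest of that group, and sdz-6 was called higher without gld-2 replicate 2.

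Most tested genes in a list of other zygotic regulators of the embryo were also lower in gld-2 worms. The list was written with earlier results of these data known. Over all rows tested, 14.9% fell and 13.5% rose. Of the 52 listed genes, 47 had a row of their own and 32 were tested, of which 24 fell and 0 rose. Their median log2 change was -1.6, also with the 1 gene at 0 set to its bound, against 0.0 over all rows. The forkhead gene fkh-3 fell by 4.07 ± 0.33 on the log2 scale (adjusted p = 1.9e-07, edgeR) and the zinc-finger gene lsy-27 fell by 4.24 ± 0.33 (adjusted p = 1.3e-07, edgeR). The cold-shock domain gene cey-2 was read at 2570 ± 142 CPM in N2 and 2430 ± 326 CPM in gld-2 (SD, n = 3) and was not called (adjusted p = 0.87, edgeR). Though on this list, cey-2 stood at a mean of 4250 CPM in embryos of 1 and 2 cells, so its reads were not limited to later stages.

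Markers of germline and embryo moved with these falls. Over all rows tested in gld-2 against N2, 14.9% fell and 13.5% rose. Of 14 measured oocyte and eggshell markers, 13 fell in gld-2 against N2 by the edgeR test. Their summed level was 2540 to 3210 CPM against 6050 to 6310 CPM. Of 14 measured sperm markers, 13 rose, and their sum was 1540 to 1730 CPM against 43.5 to 63.8 CPM. Of 10 markers of embryos past gastrulation, 9 were tested and 6 fell, with a sum of 172 to 211 CPM against 346 to 398 CPM. Most of that sum was hsp-3 and lin-26, at means of 212 and 134 CPM in N2 and 146 and 40.1 CPM in gld-2. In embryos of 1 and 2 cells hsp-3 stood at a mean of 131 CPM, so the sum does not measure late embryos alone. No oocyte or embryo marker was at 0 in gld-2. In run 2, gld-2 worms on control RNAi had a sperm sum of 178 to 195 CPM and an oocyte sum of 4110 to 4710 CPM. Their embryo marker sum was 163 to 184 CPM. The median early zygotic level was 0.22 CPM on control RNAi and 0.191 CPM in the gld-2 group of run 1. The part of these shifts in the falls of the early zygotic genes was not tested. In cpb-3, where 7.09% of all rows rose, the sperm markers also rose (13 of 14, with a sum of 441 to 722 CPM). The oocyte sum was 7830 to 8930 CPM.

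Most measured maternal regulators of blastomere fate fell in level and had shorter tails in gld-2. Of 24 such genes, listed with earlier results of these data known, 17 had a row of their own. The genes skn-1 and pop-1 were among those without one, so neither was measured here. Of the 17, 10 fell in gld-2, where 14.9% of all rows tested fell, and their median log2 change was -0.69. The Wnt gene mom-2 fell by 2.82 ± 0.16 on the log2 scale (adjusted p = 4.7e-09, edgeR) and the zinc-finger gene oma-2 fell by 1.82 ± 0.17 (adjusted p = 6.9e-07, edgeR). The mean tail of 13 of the 17 was shorter in gld-2 by the limma test, which called 11.3% of all 7958 rows tested shorter. The polarity gene mex-5 had a change of -20.12 ± 1.44 nt (adjusted p = 1.2e-05, limma).

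For the early zygotic genes no tail change was called. Tail lengths could be tested in gld-2 against N2 for 12 of the 46 genes, since the rest had too few tailed reads. Over all 7958 rows tested, 11.5% were called by limma. Of the 12 genes 0 passed, with 0 at an unadjusted p under 0.05, and 12 genes are too few to tell this from the share over all rows. Their changes ran from -7.39 ± 6.58 nt for tbx-2 to 2.1 ± 5.02 nt for pes-8 (both SE), and the median change over all rows was -2.22 nt. The most precise was pes-9, at 37.3, 35.4 and 36.9 nt in N2 and 36.8, 34.1 and 34.4 nt in gld-2 (change -1.47 ± 1.82 nt, adjusted p = 0.74, limma). Most of the 12 are genes that were not called in level, so tails of the genes that fell, other than vet-1, tbx-9 and sdz-21, have no value in this comparison.

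In N2 adults, 16 early zygotic genes had at least 20 tailed reads in each library. Their median tail was 38.1 nt, against 37.0 nt over the 7358 rows that met the same minimum. The shortest belonged to tbx-9, at 23.2, 14.4 and 22.9 nt (mean 20.2 ± 5.0 nt, SD, n = 3), and 0.6% of all rows were shorter. These lengths cover tailed reads only, which made up 63.4% of the tbx-9 reads in N2, a share below which 4.89% of rows lay. The longest belonged to ceh-51, at 55.9, 42.7 and 57.7 nt (mean 52.1 ± 8.2 nt), and 98.2% of all rows were shorter. The 3 libraries of tbx-9 lay below every library of the other 15 genes. The second longest, tbx-2, at 47.3 ± 7.1 nt, overlapped ceh-51, and the 14 genes between the ends followed each other within their spread. Each length is a mean over 20 to 473 tailed reads.

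**Figure D2:**
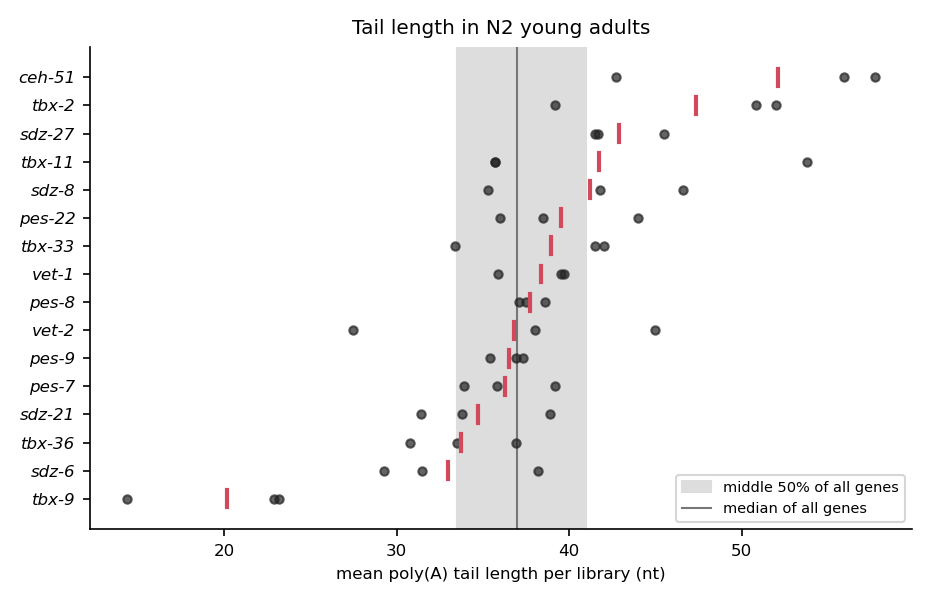
Mean poly(A) tail length in nt (horizontal axis) of the 16 early zygotic genes with 20 or more tailed reads in every N2 library; black points are the 3 libraries, red bars their mean, the grey band the middle 50% of all rows and the grey line their median of 37.0 nt. The gene tbx-9 lies left of the band in every library and ceh-51 right of it. Lengths cover tailed reads only.

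In cpb-3 against N2, 0 of the 31 tested early zygotic genes were called by edgeR, with 3 at an unadjusted p under 0.05 and 0 by DESeq2. Over all rows 8.78% were called, most of them higher. The nearest to a call was tbx-9, at 17.5, 23.8 and 27.6 CPM in cpb-3 against 13.8 to 15.1 CPM in N2 (log2 change 0.65 ± 0.22, adjusted p = 0.077, edgeR). It passed when cpb-3 replicate 1 was left out. Of the tbx-9 reads, 178 of 555 were tailed in cpb-3 (32.1%) and 294 of 464 in N2 (63.4%). By library the cpb-3 shares were 43.8, 31.5 and 6.1%, so the higher level in cpb-3 lay in untailed reads. The others were ceh-51 (0.59 ± 0.25, adjusted p = 0.16, edgeR) and pes-22 (-0.64 ± 0.24, adjusted p = 0.11, edgeR). Of 16 genes tested for tail length, 0 were called by limma and 1, pes-8, was at an unadjusted p under 0.05, with 0% of all rows called.

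Set against cpb-3, the same gld-2 libraries gave 21 lower and 2 higher of the 31 tested genes, with 19.4% of all rows lower and 17% higher. The higher genes were tbx-2 (1.2 ± 0.3, adjusted p = 0.0056, edgeR) and sdz-6 (0.93 ± 0.32, adjusted p = 0.031, edgeR). The tbx-2 libraries of cpb-3 read 4, 2.62 and 4.18 CPM against 6.91, 7.2 and 9.58 CPM in gld-2, without overlap. The call of tbx-2 was lost when cpb-3 replicate 2 was left out, and that of sdz-6 without cpb-3 replicate 1 or 2 or without gld-2 replicate 1 or 3. In tails, 0 of 12 were called by limma, with 2 at an unadjusted p under 0.05 (sdz-27, -12.05 ± 4.23 nt, and pes-9, -5.19 ± 1.81 nt) and 19.5% of all rows called, 19.1% shorter and 0.398% longer.

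The RNAi groups, labelled with deadenylase genes, were compared with control RNAi in gld-2 worms. As given above, the measured targets did not stand low in the libraries labelled with them, so loss of a deadenylase is not shown. In each of the 5 comparisons with control RNAi, 18 early zygotic genes were tested by edgeR and 0 were called, as were 0% of the 9908 rows. At an unadjusted p under 0.05 stood 1 gene for the libraries labelled parn-1, 0 for caf-1, 3 for panl-2, 5 for ccf-1 and 2 for ccr-4, and DESeq2 called 0 early zygotic genes. The 5 for ccf-1 were vet-2, tbx-36, tbx-11, tbx-33 and pes-7. The gene tbx-36 stood at 1.73 and 5.14 CPM on ccf-1 RNAi and 0.14 and 0.439 CPM on control RNAi, with a log2 change of 3.88 ± 1.15 (adjusted p = 0.68, edgeR). The gene vet-2 stood at 1.73 and 1.28 CPM on ccf-1 RNAi and had 0 counts on control RNAi (adjusted p = 0.68, edgeR). The groups did not overlap, but with 2 libraries each and 2 counts of tbx-36 over the control libraries the differences did not pass the adjustment over all rows.

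The gene vet-1 stood at 1.26 and 2.64 CPM on control RNAi, 2.25 and 2.7 on parn-1, 1.05 and 4.54 on caf-1, 1.1 and 4.11 on panl-2, 3.89 and 5.95 on ccf-1 and 3.85 and 6.29 on ccr-4, all in CPM. All 12 libraries lay below the 12.5 CPM of the lowest N2 library. The gene tbx-9 stood at 4.62 and 5.71 CPM on control RNAi and 7.78 and 17.3 CPM on ccf-1, and all these comparisons share the 2 control libraries. In tails, 0 of 10 genes tested were called by limma in any of the 5, with 19.6% of all rows called for ccf-1 (19.5% longer, 0.195% shorter), 0.632% for panl-2 and 0% for the others. At an unadjusted p under 0.05 stood 2 genes for parn-1 and 1 each for ccf-1 and ccr-4. The gene pes-7 stood at 34.6 and 29 nt on control RNAi and 44.2 and 42.6 nt on ccf-1 RNAi (change 11.63 ± 4.96 nt, adjusted p = 0.11, limma), and with 2 libraries each the groups did not overlap.

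**Figure D3:**
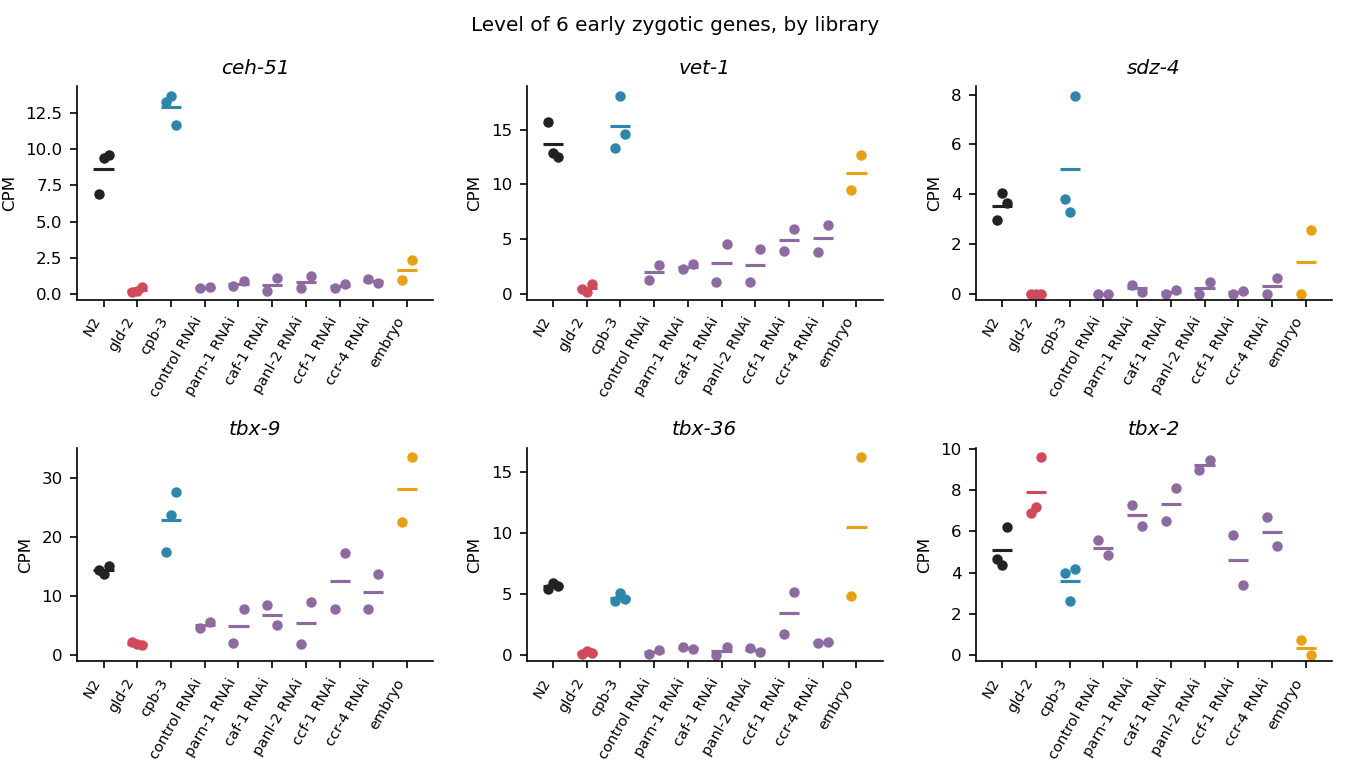
Level in CPM (vertical axes, linear, from 0) of 6 early zygotic genes in each library of the 10 groups (horizontal axes); points are libraries and bars group means. In the 3 libraries of the gld-2 group ceh-51, vet-1, sdz-4, tbx-9 and tbx-36 lie below their N2 levels and tbx-2 does not, while 1 ccf-1 RNAi library of tbx-9 lies above N2; the group means of tbx-9 and tbx-36 are highest in embryos, whose 2 points differ widely for tbx-36.

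Embryos at the 1- and 2-cell stages were compared with N2 adults, and since the embryos were read in run 2 and the adults in run 1, stage and run cannot be told apart. Of 29 early zygotic genes tested, 12 were lower and 2 higher in embryos by edgeR, where 18.3% of all rows were lower and 16.1% higher. The median log2 change of the 29 was -1.42 against -0.11 over all rows, with or without the 4 genes at 0 set to their bound. Over the 46 genes, embryos lay wholly below N2 for 24 (31.4% of all rows) and wholly above for 3 (16.6%), namely pes-5, sdz-37 and tbx-9. The 24 include genes with so few N2 counts that 0 in the shallower embryo libraries does not show a lower level. Examples are med-2 and sdz-15, with 4 and 9 counts over N2 and 0 in embryos. Of the adult tissue markers given above, the cuticle and muscle sums were lower in embryos than in N2 adults and the intestine sums overlapped. The part of adult tissue reads in these results was not tested. The embryo libraries also held ccr-4, a target in other groups of the run, at 118 and 435 CPM against 1.97 to 3.06 CPM in N2 adults.

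Several SKN-1 dependent genes and a T-box gene had no reads in the embryo libraries. The genes sdz-14, sdz-18, sdz-2 and tbx-8 had 0 counts in both, which makes them at least 6.99-, 7.43-, 3.93- and 5.25-fold lower than in N2 adults (adjusted p = 0.0077, 0.0095, 0.027 and 0.013, edgeR). A count of 0 over libraries of 3.55 and 3.27 M counts sets a limit and does not show absence. The gene ceh-51 stood at 0.971 and 2.35 CPM in embryos against 6.92 to 9.57 CPM in N2 (-2.36 ± 0.47, adjusted p = 0.0054, edgeR). The gene sdz-21 stood at 0.243 and 0.235 CPM against 2.69 to 4.16 CPM (-3.73 ± 0.79, adjusted p = 0.007, edgeR), 2 counts against 111 and a ratio of 14.6 with a counting interval of 3.94 to 122. Genes not called in gld-2 adults were lower too. The gene sdz-27 stood at 9.95 and 6.34 CPM against 18.7 to 23.4 CPM (-1.34 ± 0.28, adjusted p = 0.0071, edgeR), and tbx-2 at 0.728 and 0 CPM against 4.35 to 6.23 CPM (-3.76 ± 0.81, adjusted p = 0.0079, edgeR), 3 counts against 167 with a ratio interval of 4.91 to 71.5. None of these groups overlapped.

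The remaining lower genes were pes-22 (-2.34 ± 0.41, adjusted p = 0.0031, edgeR), sdz-6 (-2.97 ± 0.78, adjusted p = 0.019), pes-23 (-2.79 ± 0.89, adjusted p = 0.037) and sdz-26, with 1 count in embryos against 62 in N2, a 16.3-fold ratio with a counting interval of 2.81 to 652 (adjusted p = 0.034, edgeR). The calls of ceh-51, pes-22, sdz-14, sdz-18, sdz-21 and sdz-27 held whichever library was left out. That of tbx-2 was lost without N2 replicate 3 (adjusted p = 0.051), and that of tbx-8 without N2 replicate 2 (adjusted p = 0.053). Those of sdz-6 and pes-23 were lost without any one N2 library, with adjusted p of 0.072 to 0.095 and 0.1 to 0.14. Those of sdz-2 and sdz-26 were likewise lost without any one N2 library, and that of sdz-26 with DESeq2.

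Both genes that were called higher in embryos had mostly untailed reads there, as they did in some adult groups. The gene tbx-9 stood at 22.6 and 33.6 CPM in embryos against 13.8 to 15.1 CPM in N2 (0.97 ± 0.23, adjusted p = 0.012, edgeR), and pes-5 at 8.5 and 4.7 CPM against 2.5 to 2.69 CPM (1.36 ± 0.44, adjusted p = 0.039, edgeR). Of the tbx-9 reads, 55 of 236 were tailed in embryos (23.3%, Wilson 95% interval 18.4 to 29.1%) and 294 of 464 in N2 (63.4%, 58.9 to 67.6%). Of the pes-5 reads, 6 of 55 were tailed in embryos (10.9%, 5.1 to 21.8%) and 39 of 82 in N2 (47.6%, 37.1 to 58.2%). Ranked among all rows, the shares hardly moved: 4.89% of rows lay below tbx-9 in N2 and 6.21% in embryos. For pes-5 it was 1.65% in N2 and 1.93% in embryos. By library, 0 of 35 and 6 of 20 reads of pes-5 were tailed in embryos and 27.3, 38.5 and 67.6% in N2, so that embryo replicate 2 lay above the lowest N2 library and the groups overlapped. The pes-5 share without embryo replicate 1 is therefore that of 6 of 20. Of tbx-9, 26 of 93 and 29 of 143 reads were tailed in the embryo libraries and 46.5, 75.2 and 66.2% in N2, without overlap. Low shares were not limited to embryos. For tbx-9 the group shares were 43.6% in gld-2, 32.1% in cpb-3 and 25.3 to 61.6% over the RNAi groups. For pes-5 they were 22.8% in cpb-3 and 7.7, 14.0 and 26.8% on parn-1, ccr-4 and ccf-1 RNAi. When tailed reads alone were tested in embryos against N2, the change of tbx-9 was -0.15 (adjusted p = 0.78, edgeR). That of pes-5 was -0.4 (adjusted p = 0.82, edgeR). With all reads, both calls were lost without any one N2 library, tbx-9 at adjusted p of 0.051 to 0.062 and pes-5 at 0.12 to 0.15, and that of pes-5 also without embryo replicate 1 (0.85, adjusted p = 0.14).

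The median row also had fewer tailed reads in embryos, at 81.0% against 93.2% in N2, and 18.72% of rows in embryos lay under 50% tailed, against 1.97% in N2. Among 11 early zygotic genes with 20 or more reads in embryos, 4 lay under 50% with both libraries summed: pes-5, tbx-9, tbx-36 (40.4%, interval 30.9 to 50.8%) and pes-9 (45.1%, 38.5 to 51.8%). The last pair had 93.4% and 89.9% tailed in N2. Each had an embryo library above 50%: the share was 65.0 and 33.3% for tbx-36, hence 65.0% without embryo replicate 2, and 43.1 and 53.8% for pes-9. At the other end, all 93 reads of vet-1 and all 33 of sdz-37 were tailed in embryos. In N2 the lowest share was that of sdz-31, with 7 of 32 reads tailed (21.9%, 11.0 to 38.8%), and 0.14% of rows were lower. The sources used here do not say how a read was called untailed, and these intervals cover counting error only.

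**Figure D4:**
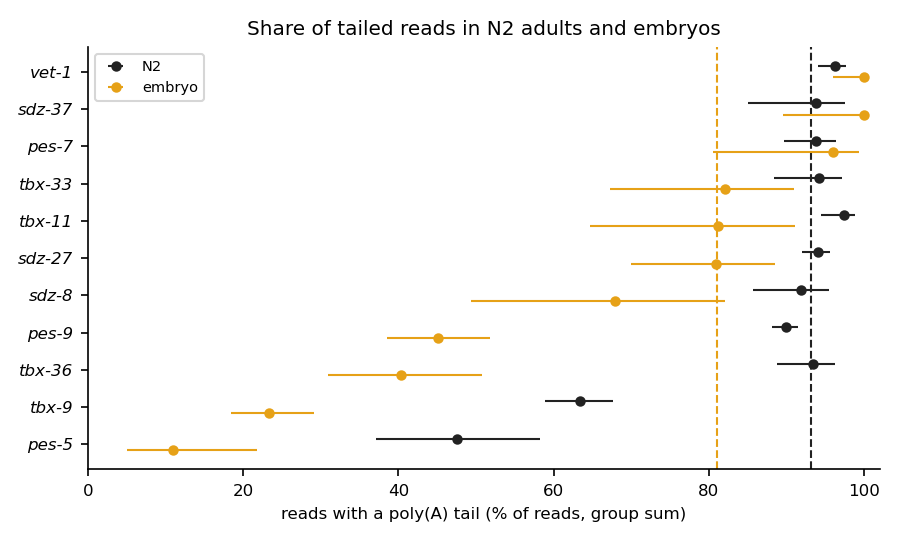
Share of reads with a poly(A) tail in percent (horizontal axis), summed over the libraries of N2 adults (black) and of embryos (orange), for the 11 early zygotic genes with 20 or more reads in embryos; bars are Wilson 95% intervals and dashed lines the medians of all rows. The genes pes-5, tbx-9, tbx-36 and pes-9 lie under 50% in the summed embryo libraries, whereas vet-1 and sdz-37 had every read tailed.

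Some early zygotic genes with reads in both embryo libraries were not called. The gene vet-1 stood at 9.47 and 12.7 CPM in embryos, all of it tailed, against 12.5 to 15.7 CPM in N2, and the ranges overlapped (-0.3 ± 0.28, adjusted p = 0.44, edgeR). The gene sdz-37 stood at 4.37 and 3.52 CPM against 1.56 to 2.38 CPM, without overlap but without a call (0.94 ± 0.51, adjusted p = 0.18, edgeR). The gene tbx-36 stood at 4.86 and 16.2 CPM against 5.45 to 5.9 CPM, with embryo libraries on both sides of N2. For the endoderm genes, end-1 had 2 counts in embryos (ratio to N2 0.293, 95% counting interval 0.0337 to 1.17), end-3 had 4 and med-2 had 0, so that no difference was detectable.

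Within run 2, embryos could be set against gld-2 worms on control RNAi, although strain, stage and feeding differ together. Of 19 early zygotic genes tested, 5 were higher (sdz-37, tbx-11, tbx-36, tbx-9 and vet-1) and 2 lower (sdz-27 and tbx-2) in embryos by edgeR, with 10.6% of all rows higher and 11.4% lower. The gene tbx-36 gave the clearest rise, from 0.14 and 0.439 CPM to 4.86 and 16.2 CPM (5.51 ± 1.15, adjusted p = 0.0059, edgeR), and vet-1 rose by 2.69 ± 0.77 on the log2 scale (adjusted p = 0.025). The gene sdz-37 had 0 counts on control RNAi. The call of tbx-2 held whichever library was left out. Without control RNAi replicate 1 only sdz-27 and tbx-2 were called, with tbx-36 at an adjusted p of 0.092, and without replicate 2 only tbx-36 and tbx-2. Without either embryo library tbx-9 was not called (adjusted p = 0.051 and 0.14), nor was tbx-11 without embryo replicate 1. Without embryo replicate 2, vet-1 (adjusted p = 0.09) and sdz-27 (adjusted p = 0.083) were not called. On tailed counts tbx-9 and tbx-11 were not called.

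For tails, embryos and N2 adults were compared in 8 early zygotic genes and 0 were called by limma, with 1 at an unadjusted p under 0.05 and 5.57% of all rows called. That gene, sdz-27, stood at 51.6 and 51.7 nt in embryos and 45.5, 41.5 and 41.7 nt in N2 (8.7 ± 2.64 nt, adjusted p = 0.099, limma), without overlap. Against control RNAi, at 38.5 and 36 nt, it was the only 1 of 6 called, with a change of 14.37 ± 4.06 nt (adjusted p = 0.04, limma), where 8.47% of rows were called. The call was lost without any one of the 4 libraries, with adjusted p of 0.067 to 0.23, and with lengths centred per library (12.01 nt, adjusted p = 0.053).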

How the data were processed

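PAT-seq libraries from 23 samples in 10 groups were analysed from tables deposited by the authors. The deposited count table holds raw counts of reads per gene, with a second table of counts of tailed reads, and the third holds the mean poly(A) tail length in nt per gene and library. Per the submitters' processing notes, Bowtie and Bowtie2 2.2.4 and build ce10 were used. The sources used here name neither the counting tool nor the tail method. Fragments were size selected per the labels' protocols, which limits the tails that can be read. Libraries held 2.2 to 15.95 M counts, of which 3 ribosomal RNA rows took 3.8 to 34.8%. The 64 rows with a transcript ID but no gene symbol (0.05% of counts) stayed in the fits.

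Counts were tested with edgeR 4.0.16 (quasi-likelihood, TMM, filterByExpr) and tail lengths with limma 3.58.1 in R 4.3.3, with Benjamini-Hochberg adjustment over all rows and a threshold of 0.05. The SE of a log2 change was its size divided by the square root of the F statistic. A tail length needed 5 tailed reads, and a tested row a mean of 20. The N2, gld-2 and cpb-3 libraries were fitted together, the RNAi libraries together, and embryos with N2 or with the RNAi libraries. Intervals are at 95%, and a floor is 3 counts over a group. Alternatives were DESeq2 1.42.0, other size factors, no filter, tailed counts, other minimums, centred lengths, a replicate block and each library left out. Both tests were tested on simulated data. The genes and the lists were chosen with earlier results of these data known. Genes named were the endomesoderm genes, those with the lowest adjusted p or highest level in each name class, any called in another comparison, and the ends of the N2 tail range. Of the 46 genes, 38 matched a RefSeq entry, all protein coding.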

Additional observations from a re-analysis of the deposited data

How the results depend on the processing

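In gld-2 against N2, the 21 calls became 25 with DESeq2, 22 with RLE size factors, 28 with no low-count filter and 19 on tailed counts, and 21 to 24 with a library left out. The gene sdz-6 was called higher with RLE size factors, no filter, tailed counts, the block and without gld-2 replicate 2, and tbx-34 without gld-2 replicate 3. For cpb-3 against N2 the count was 0 to 1 with a library left out. In embryos against N2, the 14 calls became 9 on tailed counts, where pes-5 (-0.4) and tbx-9 (-0.15) reversed, and 7 to 20 with a library left out. In embryos against control RNAi, the 7 calls became 12 with no filter and 2 to 9 with a library left out. With no filter, panl-2 RNAi gave 1 call (sdz-27). Among tails, gld-2 against cpb-3 gave 2 calls with the higher read minimum and 0 to 1 with a library left out, embryos against N2 gave 0 to 5, and ccf-1 RNAi gave 1 (pes-7) with a variance trend on mean length, an alternative chosen after seeing the data. Embryos against control RNAi gave 0 with centred lengths, 0 with that trend and 0 to 1 with a library left out. Scaled to counts outside ribosomal RNA with no TMM factor, the mean of the library medians moved from 1.88 to 2.65 CPM in N2, 0.156 to 0.214 in gld-2, 0.372 to 0.414 on parn-1, 0.191 to 0.236 on caf-1, 0.649 to 0.903 on ccf-1 and 0.429 to 0.489 on ccr-4 RNAi. The cause of these moves was not tested. Low counts limit most of these genes.

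Same-numbered libraries had correlations of -0.31 to 0.29 in run 1 and -0.2 to 0.46 in run 2, where control RNAi with each RNAi group gave 0.13 to 0.25 from 2 numbers only. The labels name no shared source, so the numbers were not taken as pairs. With the replicate block, gld-2 against N2 gave 21 calls (tbx-38 lost, sdz-6 gained), gld-2 against cpb-3 23, embryos against N2 5 and embryos against control RNAi 9.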
